A study of Homo sapiens with 4 samples.

Results

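The cytosolic chaperonin CCT, also called TRiC, is built from 8 related subunits, each encoded by its own gene: TCP1 (subunit alpha), CCT2 (beta), CCT3 (gamma), CCT4 (delta), CCT5 (epsilon), CCT6A (zeta), CCT7 (eta) and CCT8 (theta). The genes were chosen by name alone, and all 8 had a row among the 58735 genes of the deposited tables. The cells were HCT116, a long-established line from a human colon carcinoma, and RNA was sequenced in 4 libraries: 2 with a control shRNA (Control sh, here control_sh) and 2 with an shRNA against RBM25 (RBM25 sh, here RBM25_sh). RBM25 is an RNA-binding protein that acts with the U1 snRNP on the choice of splice sites. Both groups were grown in McCoy's 5A medium with serum. The sources used here do not give the hairpin sequences, the way they were delivered or the time of harvest. The labels do not say that replicates were separate cultures, so each p-value reflects the scatter of these libraries alone, and that scatter may be technical.

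CCT is a barrel of stacked rings in which each ring holds 1 copy of every subunit, and ATP binding and hydrolysis close the barrel over an unfolded protein. Actin and tubulin cannot fold without it, and many proteins with WD40 repeats depend on it. Prefoldin hands it unfolded chains, phosducin-like proteins act as its cochaperones, and tubulin released from it passes to dedicated cofactors. The subunits do not share the work of ATP evenly: alpha, beta, delta and epsilon are known to bind ATP tightly, and gamma, zeta and theta weakly.

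All 8 subunit genes stood higher in both RBM25_sh libraries than in either control library. The median difference was 1.75-fold (0.81 on the log2 scale), against a median of −0.04 over all 16091 genes tested. TCP1, CCT2, CCT4, CCT5, CCT6A and CCT8 were 1.58 to 1.96 times the control level, and CCT3 and CCT7 were 1.34 and 1.19 times. No subunit passed the edgeR quasi-likelihood test at an adjusted p of 0.05, where 0.653% of the genes tested were called higher and 2.4% lower. At an unadjusted p under 0.05, 6 of the 8 were higher, beside 7.92% of all genes higher and 13.5% lower. DESeq2 called 4 of them higher (TCP1, CCT2, CCT4 and CCT5), beside 1.18% higher and 2.05% lower of the 30897 genes with any count. edgeR without a filter on low counts called 3 (TCP1, CCT2 and CCT4), beside 1.42% higher and 3.23% lower of the same 30897 genes. The 30897 include genes with too few counts to be among the 16091, so these shares are not matched to the abundance of the subunits. With limma-voom no subunit was called, beside 0.522% higher and 1.8% lower of the 16091 genes. Groups that do not overlap were found in 23.9% of the 16091 genes with RBM25_sh higher and in 27.9% with RBM25_sh lower. The 308 genes at least as abundant as CCT4, the least abundant subunit by depth-scaled counts, had a median difference of 0.14 on the log2 scale. In 36% of these 308 genes both RBM25_sh libraries stood above both controls. In edgeR, 12.7% of the 308 were higher at an unadjusted p under 0.05.

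The genes lie on 7 chromosomes, and the sequence before the start is shown for 4 of them because they hold a CCAAT box. RefSeq windows of 300 bases on GRCh38.p14, from 250 before to 50 after a gene's start, were given for 7 of the 8, with a pair of starts each for CCT2 and CCT4; CCT6A had no entry. The letters CCAAT, read on both strands, occurred in windows of TCP1, CCT2, CCT3 and CCT8, 4 of the 9 windows, and in 34.6% of all 35116 windows. The 250 bases before the start follow, 5′ to 3′ on the gene's strand, with capitals for CCAAT, or its reverse complement where the box is on the other strand. Capitals also mark GAANNTTC, a core arrangement of the heat shock element.
TCP1 (chr6:159789603-159789852, minus strand): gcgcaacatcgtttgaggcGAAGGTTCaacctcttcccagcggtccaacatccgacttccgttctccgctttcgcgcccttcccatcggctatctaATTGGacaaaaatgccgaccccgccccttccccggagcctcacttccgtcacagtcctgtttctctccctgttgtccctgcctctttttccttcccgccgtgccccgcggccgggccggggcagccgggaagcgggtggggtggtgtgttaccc
CCT2 (chr12:69585209-69585458, plus strand): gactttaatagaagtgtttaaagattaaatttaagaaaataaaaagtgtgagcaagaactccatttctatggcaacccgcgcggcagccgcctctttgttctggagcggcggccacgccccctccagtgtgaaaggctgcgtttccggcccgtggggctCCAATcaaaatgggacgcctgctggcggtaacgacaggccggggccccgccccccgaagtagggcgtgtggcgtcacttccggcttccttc
CCT3 (chr1:156338293-156338542, minus strand): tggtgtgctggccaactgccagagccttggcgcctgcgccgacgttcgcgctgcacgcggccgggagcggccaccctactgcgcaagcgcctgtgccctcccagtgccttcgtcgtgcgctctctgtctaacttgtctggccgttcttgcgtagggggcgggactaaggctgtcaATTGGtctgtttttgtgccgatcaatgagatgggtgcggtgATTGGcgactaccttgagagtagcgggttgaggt
CCT8 (chr21:29073649-29073898, minus strand): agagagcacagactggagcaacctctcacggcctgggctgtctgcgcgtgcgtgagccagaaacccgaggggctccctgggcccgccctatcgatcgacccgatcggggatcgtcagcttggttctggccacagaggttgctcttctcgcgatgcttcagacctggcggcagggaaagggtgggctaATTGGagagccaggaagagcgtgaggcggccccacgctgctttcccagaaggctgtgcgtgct
The genes with the box differed between the groups by 0.97 (TCP1), 0.94 (CCT2), 0.42 (CCT3) and 0.80 (CCT8) on the log2 scale. A role of the box was not tested. GAANNTTC occurred in 2 of the 9 windows, that of TCP1 printed above and the second window of CCT2, and in 6.77% of all windows. Its mirror arrangement TTCNNGAA occurred in 1 of 9, of CCT4, against 7.74% of all windows. GGGCGG, the GC box, occurred in 6 of 9 against 45% of all windows, and the E-box CACGTG in none of 9 against 7.26%. The bases before the start in the windows of CCT3, CCT5 and CCT7, and in the second window of CCT2, lie wholly inside the listed span of the gene. Those of TCP1, CCT4 and CCT8, and of the printed window of CCT2, lie partly inside it.

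The targeted transcript was checked first. RBM25, in TMM-scaled counts per unit of sequencing depth (CPM, as edgeR computes it), stood at 155 and 115 with the control hairpin and at 44.0 and 35.7 with its own. It fell by 1.76 ± 0.30 on the log2 scale (edgeR adjusted p = 0.0195). The call was lost without either RBM25_sh library (log2 differences of −1.90 without replicate 1 and −1.58 without replicate 2). It was also lost with limma on log2 of the FPKM plus 1 (adjusted p = 0.0572), and narrowly kept with FPKM plus 0.1 (limma adjusted p = 0.0495). Library totals ran from 15528274 to 16982663 counts, and the 8 subunit genes together took 0.320% and 0.277% of the counts in the controls and 0.460% and 0.433% in the RBM25_sh libraries. Of the epithelial markers EPCAM, CDH1, KRT8, KRT18 and KRT19 all 5 were tested, with a summed FPKM of 839 to 1049 in the controls and 1090 to 1287 in the RBM25_sh libraries. The intestinal regulator gene CDX2 was present at 10.6 to 18.0 CPM, whereas CDX1 had 0 counts in every library and VIL1 had 1 count in 1 library. Of 8 markers of other cells, PTPRC, CD3E, CD68 and DCN had 0 to 2 counts per library, PECAM1 1 to 5, VWF 9 to 25 and COL1A1 37.1 to 62.0 CPM. COL3A1 had 1 and 2 counts in the controls and 9 and 12 in the RBM25_sh libraries. The 8 summed to 4.02 and 6.23 FPKM in the controls and to 4.00 and 4.84 FPKM in the RBM25_sh libraries.

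The subunits known to bind ATP tightly are given first, a grouping made after the values were seen. TCP1, whose product gave the complex its older name, is encoded on chromosome 6 (ENSG00000120438, GRCh38 159778498 to 159789749, minus strand). The controls had 410 and 279 CPM and the RBM25_sh libraries 715 and 635 CPM. The means were 345 ± 93.0 and 675 ± 56.0 CPM (SD, n = 2), which differ by 0.97 ± 0.29 on the log2 scale (edgeR adjusted p = 0.0982). The gap between the groups was wider than that between either pair of replicates, and the groups did not overlap.

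CCT2 (ENSG00000166226, chromosome 12, 69585334 to 69601570, plus strand) had 326 and 237 CPM in the controls and 573 and 507 CPM in the RBM25_sh libraries. Its difference was 0.94 ± 0.28 on the log2 scale (edgeR adjusted p = 0.0997). CCT4 (ENSG00000115484, chromosome 2, 61868089 to 61888804, minus strand) had 313 and 216 CPM against 493 and 487 CPM. For both genes the 2 RBM25_sh libraries lay closer together than the 2 controls. The CCT4 difference was 0.89 ± 0.28 (edgeR adjusted p = 0.1196). CCT5 (ENSG00000150753, chromosome 5, 10249921 to 10266412, plus strand) had 311 and 260 CPM against 529 and 472 CPM, a difference of 0.81 ± 0.27 (edgeR adjusted p = 0.126). In all 4 of these genes the lowest RBM25_sh library was above the highest control library, and control replicate 2 was the lowest of the 4 libraries.

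Of the subunits known to bind ATP weakly, CCT8 (ENSG00000156261, chromosome 21, 29055805 to 29073797, minus strand) stood at 378 and 272 CPM in the controls and at 599 and 532 CPM with the RBM25 hairpin, a difference of 0.80 ± 0.28 (edgeR adjusted p = 0.144). CCT6A (ENSG00000146731, chromosome 7, 56051630 to 56063989, plus strand) had 387 and 319 CPM against 588 and 524 CPM, a difference of 0.66 ± 0.27 (edgeR adjusted p = 0.193). Both followed the order of libraries seen for TCP1, with control replicate 2 lowest and RBM25_sh replicate 1 highest. CCT3 (ENSG00000163468, chromosome 1, 156308968 to 156367873, minus strand) was the most abundant subunit mRNA in every library, with 633 and 608 CPM against 811 and 852 CPM. Its difference was 0.42 ± 0.25 (edgeR adjusted p = 0.370). CCT7, the eta subunit gene (ENSG00000135624, chromosome 2, 73233420 to 73253021, plus strand), had 388 and 435 CPM against 482 and 500.0 CPM, the smallest difference of the 8 at 0.25 ± 0.26 (edgeR adjusted p = 0.614). Its highest control and lowest RBM25_sh library were separated by less than the gap between the controls.

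**Figure D1:**
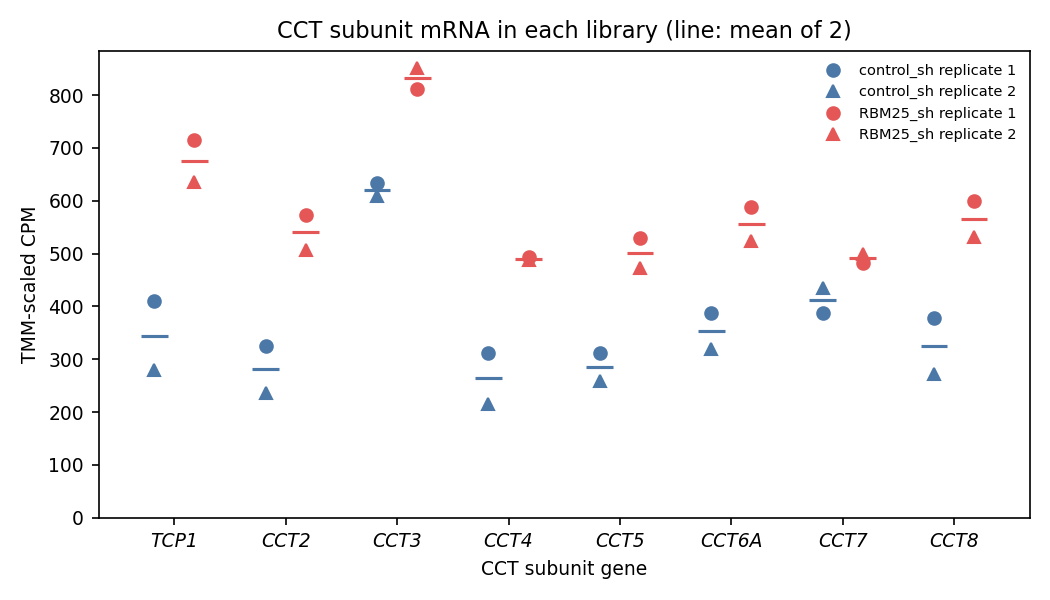
TMM-scaled CPM of the 8 subunit genes (vertical axis) in each of the 4 libraries, with the mean of each group of 2 as a line. The red RBM25_sh points lie above the blue control_sh points for every gene, and the gap is narrowest for CCT7 (435 CPM in the higher control, 482 CPM in the lower RBM25_sh library).

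The replicates differed from each other along the base composition of the genes, and the subunits fell on both sides of it. TCP1, CCT2, CCT4, CCT5, CCT6A and CCT8 have a GC content of 43.1% to 45.9% in their longest GENCODE transcript, while CCT3 and CCT7 have 51.2% and 51.3%. In the former 6 genes control replicate 2 stood below replicate 1 by −0.56 to −0.26 on the log2 scale, and RBM25_sh replicate 2 below replicate 1 by −0.18 to −0.02. In CCT3 and CCT7 these differences were −0.06 and 0.17 in the controls and 0.07 and 0.05 in the RBM25_sh libraries. Over 11793 genes, none of them an independent replicate, Spearman's rho between GC content and replicate 2 minus replicate 1 was 0.811 for the controls and 0.808 for RBM25_sh, and −0.288 for the difference between the groups.

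With each library's smooth trend on GC content removed, 7 of the 8 subunits were called higher and none lower, and 12.8% of all genes were called higher and 15.5% lower in that fit. Among the 308 genes at least as abundant as CCT4, the least abundant subunit by CPM, 17.5% were. The differences themselves moved little: the median became 0.72, against a median of −0.03 over all genes. It was the SE that shrank, from a median of 0.27 to 0.16. CCT2 was then at 0.90 ± 0.16 (edgeR adjusted p = 0.00299), TCP1 at 0.89 ± 0.16 (edgeR adjusted p = 0.00336), CCT4 at 0.84 ± 0.16, CCT5 at 0.74 ± 0.15, CCT8 at 0.70 ± 0.15 and CCT6A at 0.57 ± 0.15. CCT3 was just past the threshold at 0.48 ± 0.16 (edgeR adjusted p = 0.0473), and CCT7 was not called at 0.32 ± 0.15 (edgeR adjusted p = 0.130). The 2 GC-rich subunits also had the smallest differences in this fit.

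**Figure D2:**
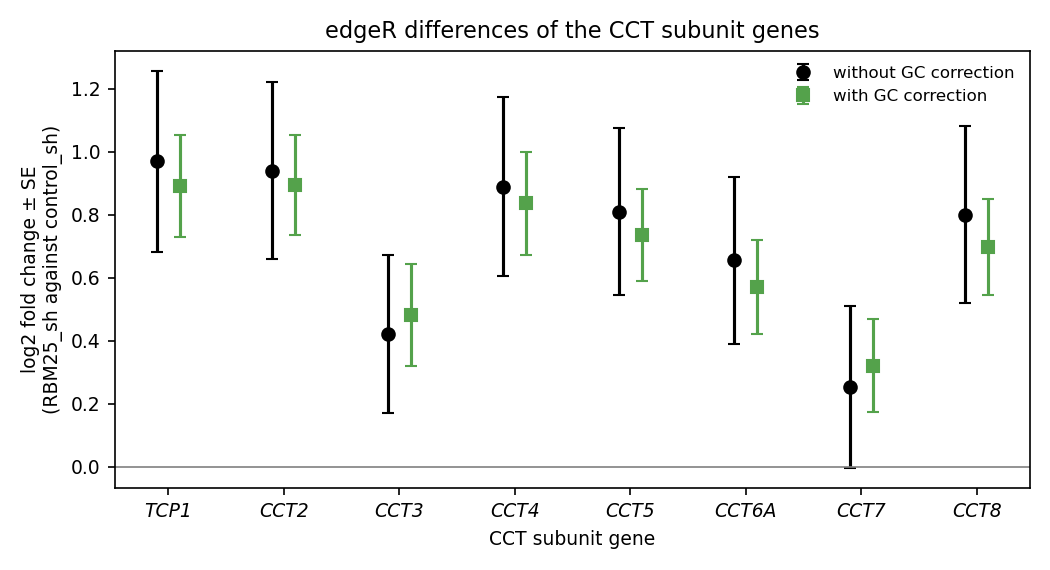
Log2 fold change of RBM25_sh against control_sh with its SE (vertical axis) for each subunit gene, from edgeR without (black circles) and with (green squares) the GC correction. All 16 values are above 0, and the bars are shorter with the correction.

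**Figure D3:**
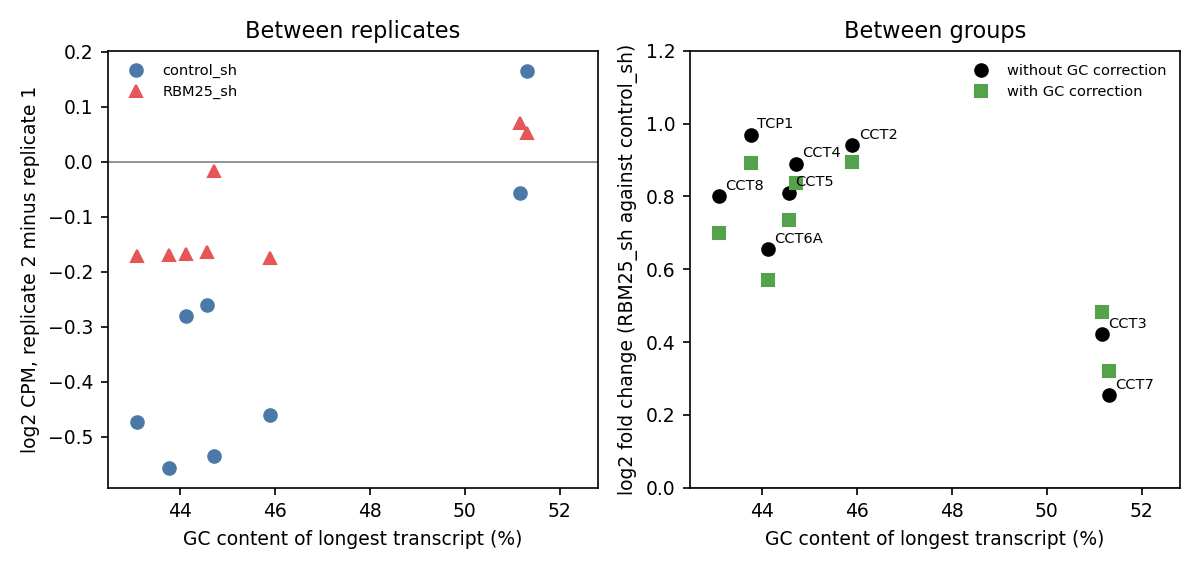
Left, log2 CPM of replicate 2 minus replicate 1 in each group against the GC content of the 8 subunit genes; right, the log2 fold change between the groups against the same axis, without and with the GC correction. The 6 genes at 43.1% to 45.9% GC lie below 0 on the left and highest on the right, and CCT3 and CCT7, above 51% GC, lie lowest on the right under either fit.

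The number of subunits called depended on single libraries. Without control_sh replicate 1 and without a GC correction, TCP1, CCT2, CCT4, CCT5 and CCT8 were called higher, 5 of 8 beside 5.1% of all genes higher and 8.82% lower; no subunit was called when any other library was left out. With the GC correction all 8 were called without control_sh replicate 1, beside 15.9% of all genes higher and 16.3% lower, and without control_sh replicate 2, beside 14.6% and 14.2%. With the same correction 3 were called (TCP1, CCT2 and CCT4) without RBM25_sh replicate 1, beside 6.02% of all genes higher and 6.96% lower, and 2 (TCP1 and CCT2) without RBM25_sh replicate 2, beside 4.89% and 7.52%.

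Levels per length allow the subunits to be compared with each other. In the deposited FPKM (counts per kilobase of listed gene length, scaled to the library), the control libraries had a summed level of 771 and 641 over the 8 genes, and the RBM25_sh libraries had 1222 and 1101. CCT3 was highest and CCT5 lowest in all 4 libraries. The order of the control means was CCT3 at 148 ± 4.58 FPKM, CCT7 at 110 ± 8.66, CCT8 at 93.5 ± 21.7, CCT4 at 89.8 ± 23.5, CCT6A at 87.0 ± 12.1, TCP1 at 67.2 ± 18.3, CCT2 at 62.6 ± 14.2 and CCT5 at 47.0 ± 6.12 (SD, n = 2). Only CCT3 above CCT7, and CCT2 above CCT5, were neighbours whose control libraries did not overlap. Compared within each control library, CCT6A also stood above TCP1, and TCP1 above CCT2. CCT5 has the greatest listed length of the 8, 5839 bases, and the listed lengths cover more than a single transcript, so these levels depend on that choice.

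In the RBM25_sh libraries the order was CCT3 at 204 FPKM in both libraries, CCT4 at 171 ± 7.29, CCT8 at 167 ± 19.9, CCT6A at 141 ± 16.5, TCP1 at 135 ± 15.9, CCT7 at 135 ± 1.21, CCT2 at 123 ± 14.9 and CCT5 at 84.7 ± 9.69. Here CCT3 above CCT4, CCT8 above CCT6A and CCT2 above CCT5 were the neighbours that did not overlap. Compared within each RBM25_sh library, CCT6A also stood above TCP1, and CCT7 above CCT2. By these means CCT7 was in the second place in the controls and in the sixth place with the RBM25 hairpin, but it was in the fourth place in both control replicate 1 and RBM25_sh replicate 2. The levels lay closer together in the RBM25_sh libraries, where the highest subunit was 2.23 and 2.62 times the lowest, against 2.96 and 3.40 times in the controls.

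Expressed as a share of the summed FPKM, CCT7 had 13.5% and 18.2% in the controls and 11.1% and 12.2% in the RBM25_sh libraries. CCT3 had 19.7% and 22.7% against 16.7% and 18.5%. The shares of TCP1, CCT2, CCT4 and CCT5 were higher in both RBM25_sh libraries than in either control, TCP1 for example with 9.44% ± 1.36 against 11.6% ± 0.51, while those of CCT6A and CCT8 overlapped. Shares sum to a fixed whole, so a lower share of CCT3 and CCT7 is not a lower level. The log2 ratio of TCP1 to CCT7 in CPM was 0.08 and −0.64 in the controls and 0.57 and 0.35 in the RBM25_sh libraries, and with the GC correction −0.05 and −0.35 against 0.35 and 0.40. The differences between subunits were not tested. In bulk RNA more transcript per cell and more cells with a high level cannot be told apart.

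**Figure D4:**
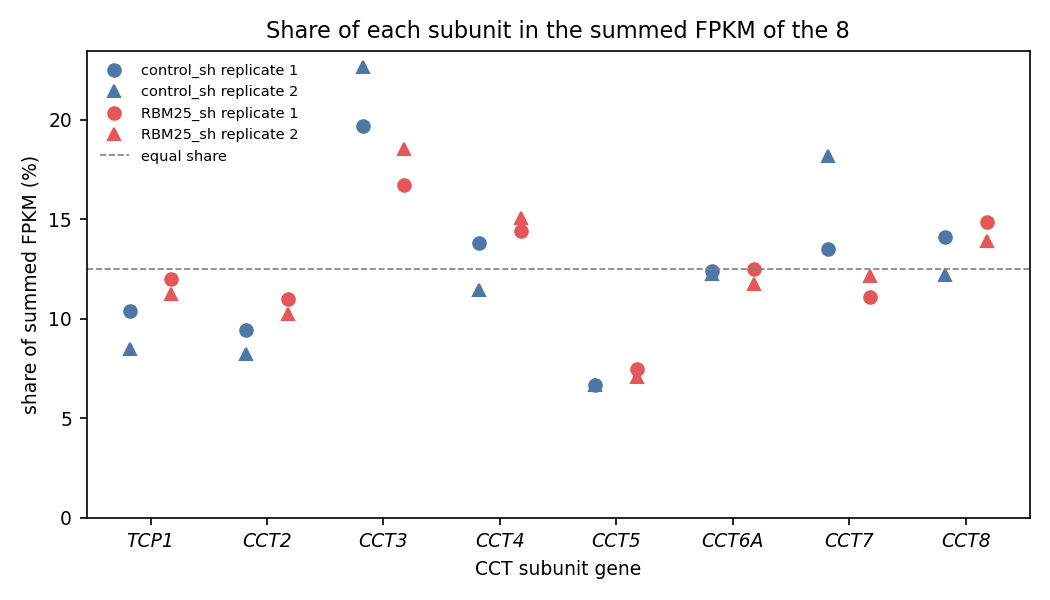
Share of each subunit gene in the summed deposited FPKM of the 8 genes (vertical axis, percent) in each library; the dashed line marks an equal share. CCT3 and CCT7 have lower shares in both RBM25_sh libraries, and TCP1, CCT2, CCT4 and CCT5 higher ones.

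Copies and neighbours of the subunit genes were counted too. The files list 13 pseudogenes named after the subunits, 7 of them with a count in any library, and together they had 0.225% to 0.35% as many counts as the 8 genes. CCT6P1, a transcribed copy related to CCT6A, had the most, 71 to 138 counts. The sources used here do not say how reads that match both a gene and its copy were counted. The cholesterol synthesis enzyme gene ACAT2 overlaps TCP1 by 558 bases on the opposite strand. ACAT2 had 27.5 and 25.0 CPM in the controls and 68.7 and 50.1 CPM in the RBM25_sh libraries (1.18 ± 0.29, edgeR adjusted p = 0.0602). Without a stated strand setting, reads in the shared stretch cannot be assigned to either gene. TSACC overlaps CCT3 with 12 to 40 counts, COMMD1 overlaps CCT4 by 81 bases with 82 to 129 counts, and the antisense or intronic transcripts AC107081.2, AC012640.4 and AF129075.1 had at most 16 counts. The small nucleolar RNA genes inside TCP1 (SNORA20 and SNORA29) and CCT6A (SNORA22B and SNORA15) had at most 10 counts.

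Genes that start within 1000 bases of a subunit gene on the other strand did not share one direction. MRPL18, a mitochondrial ribosomal protein gene whose start lies 63 bases from that of TCP1, had 39.2 and 50.7 CPM in the controls and 71.0 and 79.9 CPM in the RBM25_sh libraries (0.75 ± 0.28, edgeR adjusted p = 0.165). PSPH, the last enzyme of serine synthesis, starts 26 bases from CCT6A and had 66.1 and 61.3 CPM against 41.3 and 36.9 CPM (−0.70 ± 0.27, edgeR adjusted p = 0.173). FAM173B starts 24 bases from CCT5 and was at −0.48 ± 0.32, PRADC1 starts 182 bases from CCT7 and was at −0.73 ± 0.37, and COMMD1 starts 80 bases from CCT4 and was at 0.13 ± 0.34, none of them called. After the GC correction MRPL18 (0.75 ± 0.16) was called higher and PSPH (−0.68 ± 0.14) lower, with edgeR adjusted p-values of 0.00824 and 0.00603. PSPH and CCT6A, with starts 26 bases apart, were thus called in opposite directions in that fit.

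The proteins that bring substrates to CCT were mixed. In what follows, a gene is called by the edgeR fit on all 4 libraries, and the GC-corrected fit is named where it is meant. Of 9 prefoldin and prefoldin-like genes none was called, and their median was 0.34. PFDN1 had 39.1 and 41.9 CPM in the controls and 61.0 and 64.3 CPM in the RBM25_sh libraries (0.63 ± 0.27, edgeR adjusted p = 0.211), and VBP1, prefoldin subunit 3, was at 0.59 ± 0.32. PFDN2, another subunit of the same hexamer, had 49.0 and 136 CPM against 38.3 and 43.5 CPM (−1.18 ± 0.43, edgeR adjusted p = 0.154). Its control replicate 2 stood apart from the other 3 libraries. With the GC correction PFDN1, VBP1 and PDRG1 were called higher and PFDN2 lower, 3 and 1 of 9 beside 12.8% and 15.5% of all genes.

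All 3 tested phosducin-like cochaperone genes were higher in both RBM25_sh libraries than in either control, as were 23.9% of all genes. The edgeR fit on all 4 libraries called none of the 3. PDCL3 had 19.1 and 20.5 CPM against 43.4 and 40.4 CPM (1.08 ± 0.28, edgeR adjusted p = 0.0687), and TXNDC9 had 22.9 and 13.2 CPM against 38.5 and 31.1 CPM (0.95 ± 0.34, edgeR adjusted p = 0.151). PDCL was at 0.49 ± 0.28, and PDCL2 was not tested, with 1 count in all. PDCL3 (1.06 ± 0.15) and TXNDC9 (0.77 ± 0.16) were called higher with the GC correction, 2 of 3 beside 12.8% of all genes. DESeq2 (adjusted p = 0.0114) and edgeR without a filter (adjusted p = 0.0287) also called PDCL3, and limma-voom did not (adjusted p = 0.0718). The PDCL3 difference was 1.04 and 1.13 without control_sh replicates 1 and 2. It was 1.05 and 1.17 without RBM25_sh replicates 1 and 2. TXNDC9 was not called by DESeq2 (adjusted p = 0.0892), edgeR without a filter (adjusted p = 0.0765) or limma-voom (adjusted p = 0.1365). The TXNDC9 difference was 1.40 and 0.60 without control_sh replicates 1 and 2. It was 0.80 and 1.13 without RBM25_sh replicates 1 and 2.

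The tubulin folding cofactors, which act after CCT, did not follow the subunits. Of 8 rows for 7 genes (TBCE has a pair of identifiers) none was called, and the median was −0.37. TBCEL, which destabilises tubulin, had 33.1 and 21.9 CPM against 18.5 and 15.2 CPM (−0.71 ± 0.32, edgeR adjusted p = 0.239). It was called lower with the GC correction (−0.90 ± 0.16). In that fit 1 of the 8 rows was called lower and none higher, beside 15.5% and 12.8% of all genes. TBCD and TBCC were at −0.46 ± 0.28 and −0.50 ± 0.32, and ARL2, with groups that overlapped, at −0.65 ± 0.47. In TBCEL, TBCD and TBCC both RBM25_sh libraries stood below both controls, 3 of 8 rows beside 27.9% of all genes.

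Actin and tubulin are the main substrates of CCT. Among 17 genes for actins, actin-related proteins (ACTR2, ACTR3, ACTR1A and ACTL6A) and tubulins, 1 was called higher and none lower, and the median was 0.31. ACTB, the cytoplasmic beta-actin gene, rose from 1327 and 1303 CPM to 2850 and 3299 CPM (1.23 ± 0.25, edgeR adjusted p = 0.0347). The call was lost without RBM25_sh replicate 1 (1.35, edgeR adjusted p = 0.0795) or 2 (1.15, edgeR adjusted p = 0.194), and with limma on log2 of the FPKM plus a pseudocount of 1 or 0.1 (adjusted p of 0.080 and 0.0783). ACTG1, gamma-actin, had 3507 and 3148 CPM against 5604 and 6544 CPM (0.87 ± 0.24, edgeR adjusted p = 0.0838), and the beta-tubulin gene TUBB had 753 and 684 CPM against 1240.0 and 1287 CPM (0.81 ± 0.25, edgeR adjusted p = 0.110). TUBB6 was at −0.57 ± 0.31. With the GC correction 7 of the 17 were called higher and none lower, beside 12.8% of all genes higher and 15.5% lower. The 7 included ACTB, ACTG1, TUBB and TUBB4B (0.68 ± 0.15). Actin and tubulin genes have many processed pseudogenes, so reads may be divided among copies and these values carry that uncertainty.

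Of 11 other known substrates none was called, and their median was 0.03. HDAC3, a histone deacetylase gene, had 72.9 and 77.1 CPM against 45.0 and 45.5 CPM (−0.73 ± 0.26, edgeR adjusted p = 0.154), and the cyclin E1 gene CCNE1 had 17.5 and 20.9 CPM against 30.6 and 29.6 CPM (0.64 ± 0.29, edgeR adjusted p = 0.231). Both were called with the GC correction, HDAC3 lower (−0.63 ± 0.13) and CCNE1 higher (0.75 ± 0.16). That is 1 of 11 higher and 1 of 11 lower, beside 12.8% of all genes higher and 15.5% lower. STRN and FZR1, next in this list by the edgeR p-value, were at 0.40 ± 0.32 and −0.38 ± 0.34. CDC20 and GNB1, which encode WD40 proteins folded by CCT, were at 0.00 ± 0.28 and −0.04 ± 0.25.

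Of 6 other chaperonin genes tested, 1 was called higher and 1 lower. HSPD1 and HSPE1 encode the mitochondrial chaperonin Hsp60 and its lid Hsp10 and overlap each other on opposite strands. HSPE1 rose from 31.5 and 43.6 CPM to 122 and 108 CPM (1.61 ± 0.29, edgeR adjusted p = 0.0248), and HSPD1 had 1254 and 822 CPM against 2665 and 2206 CPM (1.23 ± 0.29, edgeR adjusted p = 0.0527). HSPD1 was called higher with the GC correction (1.16 ± 0.19), by DESeq2 (adjusted p = 0.0029) and by edgeR without a filter (adjusted p = 0.00064). It was not called by limma-voom (adjusted p = 0.0541). The HSPD1 difference was 1.575 and 0.955 without control_sh replicates 1 and 2. It was 1.105 and 1.396 without RBM25_sh replicates 1 and 2. BBS10, a chaperonin-like gene that acts with CCT in assembling the BBSome of cilia, fell from 103 and 58.9 CPM to 27.1 and 22.8 CPM (−1.70 ± 0.34, edgeR adjusted p = 0.0319). HSPE1 lost its call without RBM25_sh replicate 1 or 2 (edgeR adjusted p of 0.168 and 0.0618), as did BBS10 (0.143 and 0.209), whose call was also lost with limma on log2 FPKM (adjusted p of 0.0723 and 0.0672). MKKS, the partner of BBS10 in that assembly, was at −0.47 ± 0.32 and was called lower with the GC correction (−0.68 ± 0.15), while BBS12 was at 0.17 ± 0.38. With the GC correction 2 of the 6 were called higher and 2 lower, beside 12.8% of all genes higher and 15.5% lower. CCT6B, the testis form of the zeta subunit, had 20 to 33 counts per library, and CCT8L2 had 0 counts, so CCT6A supplied nearly all counts for the zeta subunit. Across the 6 lists, with 54 rows tested, 2 were called higher and 1 lower, beside 0.653% of all genes higher and 2.4% lower.

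**Figure D5:**
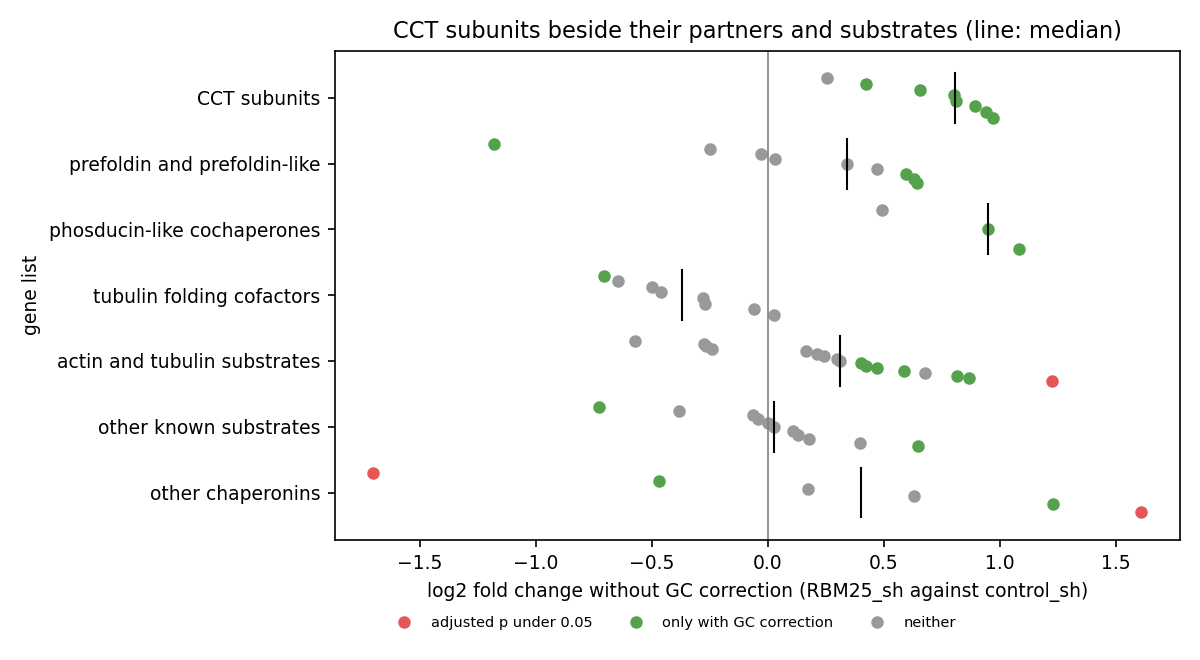
Log2 fold change of RBM25_sh against control_sh without GC correction (horizontal axis) for the 8 subunit genes and for 6 lists of partners and substrates, with each list's median as a line; colours show adjusted p under 0.05 (red), under 0.05 in the GC-corrected fit but not in the uncorrected one (green) or in neither of these fits (grey). All subunit genes lie right of 0 (0.25 to 0.97), while the other lists except the phosducin-like genes spread to both sides.

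Among 6333 other protein-coding genes with an average log2 CPM of at least 5, those with a profile most like the mean of the 8 subunits over the 4 libraries included BTBD3, CRLS1, ATP6V1E1 and RAB12. Their root mean square distance in centred log2 CPM was 0.0081 to 0.0256, and BTBD3 for example had 45.7 and 36.5 CPM against 69.7 and 66.0 CPM (0.72 ± 0.28, edgeR adjusted p = 0.172). The distances of the subunits themselves to their own mean were larger, from 0.0449 for CCT6A and 0.0519 for CCT5 to 0.186 for CCT3 and 0.294 for CCT7. Nearer to that mean than CCT6A were 20 other genes, and nearer than CCT7 were 2187.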

How the data were processed

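Counts and FPKM per gene were deposited for 4 libraries, in groups taken from the labels. TRIzol RNA went through a column kit into Illumina libraries, per the labels' protocols. The submitters' processing notes name TopHat2 2.0.9, Bowtie2 2.0.6, Cuffdiff 2.1.1 and Cufflinks 2.1.1, with no roles; for the counting tool, strand setting, build and filters the entry is: not given in the sources used here. The deposited counts are whole numbers per gene without normalization. The deposited FPKM equal these counts divided by listed gene length and 1 factor per library. Positions of all 58735 genes equal GENCODE release 29 on GRCh38. Chi-square per degree of freedom between replicates was 62.5 (control_sh) and 24.6 (RBM25_sh), so none was treated as a duplicate.

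All genes passing filterByExpr (16091) were fitted in edgeR 4.0.16 (R 4.3.3) with TMM scaling and a quasi-likelihood F test on group alone, two-sided, with Benjamini-Hochberg adjustment over all genes and a threshold of 0.05. The SE was taken as the absolute log2 fold change over the root of the F statistic. For the GC correction a loess curve (span 0.3) of each library's log2 CPM against transcript GC (longest GENCODE transcript) entered as an offset; 99.95% of genes tested had a value. Alternatives used DESeq2 1.42.0, limma 3.58.1, other scalings and filters, log2 of the deposited FPKM with a pseudocount, a replicate block and each library left out. Scripts were tested on simulated data, and figures drawn with matplotlib 3.10.9. The members, lists and alternatives were chosen with earlier results of these data known. Named genes are the 8 subunits, RBM25, called genes of each list or otherwise up to 4 with the smallest p, overlapping genes, genes starting within 1000 bases on the other strand, and the 5 genes of nearest profile, of which 1 is not reported here; ACTG1, TUBB, TUBB4B, TUBB6, HSPD1, MKKS, BBS12, CDC20, GNB1 and CCT6P1, which fall outside it, were chosen after their values were seen. Protein sequences were not used here.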

Additional observations from a re-analysis of the deposited data

How the results depend on the processing

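All 8 subunit differences were above 0 under each of the 19 alternatives (152 of 152 values). Every alternative refits the same 4 libraries, in which both RBM25_sh libraries stood above both controls for each subunit. The shared direction is therefore not separate evidence. The median difference lay between 0.614 and 1.01 on the log2 scale, within the replicate spread of 0.252 around 0.81. The number of subunits called higher, 0 of 8 in the edgeR fit, was 3 without a filter, 4 with the DESeq2 Wald test, 6 with the replicate block, 7 with the GC correction and 7 with both; it was 0 to 5 without 1 library, and 2 to 8 with the GC correction and without 1 library, a combination chosen after seeing the data; the 8 came from the fits without a control library, which called 15.9% and 14.6% of all genes higher. No subunit was called lower. Of the partner and substrate genes, 2 higher and 1 lower in the edgeR fit, the counts were 5 and 2 without a filter, 1 and 0 on log2 FPKM with either pseudocount, 17 and 9 with the replicate block, 15 and 5 with the GC correction, and 15 and 7 with both. DESeq2 called 6 higher. They were 0 to 8 higher and 0 to 3 lower without 1 library, and with the GC correction 6, 8, 18 and 19 higher and 3 to 7 lower. The cause of these changes was not tested. A fit without 1 library takes its spread only from the group that keeps 2. Libraries with the same replicate number deviated together (correlation of 0.714 over 11797 genes), but the labels do not say that the number marks a shared culture or day, so the replicate block is given only here; it called 16.4% of all genes higher and 19.1% lower, and 17.6% and 20.3% with the GC correction. Library totals in place of TMM moved the median of all genes to −0.146 and left all 8 subunits above 0. The subunit genes had 3871 to 13374 counts per library.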
